A study of Mus musculus with 8 samples.

Results

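The set described here holds 43 mouse genes of ribosome biogenesis and the nucleolus, taken as a named list and read from every non-control probe annotated with one of these symbols. They fell into 6 roles: 3 subunits of RNA polymerase I, 4 proteins of box C/D and 4 of box H/ACA small nucleolar ribonucleoproteins (snoRNPs), 6 abundant nucleolar proteins, 11 small-subunit and 15 large-subunit assembly factors. The arrays carried 63 probes for them, among 55681 non-control probes. Of the 43 genes, 42 were measured and are compared below with all 21316 genes or features tested. The remaining gene, Utp18, had 1 probe that was well above background on 0 of 8 arrays.

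All RNA came from wk3, a mouse pre-B cell line that is SLP-65-/- in every group and so lacks the adaptor that carries the pre-B cell receptor signal. Cells were transduced with a retroviral vector for a scrambled sponge, the control, or for a miR-15 sponge, a transcript with binding sites for the miR-15 family, and were selected with puromycin. Each was grown in excess IL-7, a growth factor for B cell precursors, or taken 36 h after IL-7 was removed, which starts differentiation in this line. The 4 groups held 2 one-colour arrays each, and the 2 repetitions used clones made independently.

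Ribosome production begins in the nucleolus, where RNA polymerase I transcribes the ribosomal RNA precursor. Small nucleolar RNPs then modify it, box C/D particles by 2′-O-methylation and box H/ACA particles by pseudouridylation, and assembly factors process it and fold it with ribosomal proteins into the small and large subunits. In lymphocytes the pathway is known to follow growth signals, and MYC is a known activator of many of its genes.

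Values are log2 signals relative to the 75th percentile of the same array, so that 0 is a signal equal to that percentile and 1 unit is a doubling. Changes are differences of group means ± SE with n = 2 arrays per group. Adjusted p values come from limma with Benjamini-Hochberg adjustment over all 21316 genes, and the threshold for a call was 0.05. Probe positions are those of the deposited annotation on mm9, and no exon or untranslated region was assigned to them here. Because whole cultures were measured, fewer cells with a transcript and less RNA per cell cannot be told apart.

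Per array, 50.6% to 56.6% of 59305 spots were well above background and 0 were saturated, and all 42 chosen probes were well above background on all 8 arrays. Replicate 1 of the scrambled cells with IL-7 stood apart, with 277 outlier spots against 128 to 149 on the others and a 75th percentile signal of 294 against 350 to 410. Without it, the median change of the 42 genes stayed within -0.27 to -0.19 on withdrawal in scrambled cells. The median difference between constructs with IL-7 stayed within 0.23 to 0.33. The median gap between the 2 arrays of a group over the 42 genes was 0.07 to 0.10, against 0.10 to 0.16 over all genes. The largest gap for any of the 42 was 0.40, for Noc3l in sponge cells with IL-7. All 8 arrays lay on 1 slide, and the slide positions of the groups differed, so position and group cannot be told apart. All 12 pre-B markers were well above background on all 8 arrays, including Cd79a and Pax5. Some probes for other cell types also gave signal (4 of 8 T cell, 7 of 9 myeloid, 4 of 6 NK, 3 of 7 erythroid and 1 of 7 fibroblast markers were kept), whereas Cd3g, Cd8b1, Ly6g, Ncr1, Eomes, Alas2, Gata1, Col1a1, Col3a1, Dcn, Pdgfra, Lum and Thy1 were above background on no array.

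The miR-15 sponge was designed against 6 microRNAs, whose mature RefSeq sequences are printed to show what the construct binds. The capitals mark the seed, bases 2 to 8, which is AGCAGCA in each.
miR-15a-5p: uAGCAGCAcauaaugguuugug
miR-15b-5p: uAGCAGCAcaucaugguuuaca
miR-16-5p: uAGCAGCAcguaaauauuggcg
miR-195a-5p: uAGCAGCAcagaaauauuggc
miR-322-5p: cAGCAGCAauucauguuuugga
miR-497a-5p: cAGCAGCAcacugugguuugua

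The first comparison was IL-7 withdrawal in cells with the scrambled sponge. Here 19 of the 42 genes fell and 2 rose, while 21 did not pass the test. Across all genes tested, 28.1% were called lower and 19.9% higher, 48% in all. The median change of the 42 was -0.22, against -0.04 over all genes, with a range on this scale from -0.95 (Npm1) to 0.56 (Noc3l). The values of 33 genes were below 0, or 28 after quantile normalization. For 25 genes both arrays without IL-7 lay below both arrays with it, and for 7 they lay above; over all genes these shares were 40.6% and 34.3%. The summed signals of other cell types' markers moved with this withdrawal. The log2 sums were 4.16 and 4.10 with IL-7 and 4.31 and 4.29 without for T cell markers, 4.44 and 4.02 against 4.78 and 4.77 for myeloid, -0.30 and -0.38 against 0.01 and 0.05 for NK, and -2.30 and -2.13 against -1.84 and -1.78 for erythroid markers. Single markers did not all move with their sums. Their median changes were 0.08 for T cell, -0.25 for myeloid, 0.05 for NK and -0.43 for erythroid markers. In the same order, 2 of 4, 5 of 7, 2 of 4 and 2 of 3 values were below 0. The part of these markers in the result was not tested. By role, the falls took in 4 of 4 box H/ACA proteins, 3 of 4 box C/D proteins, 4 of 6 nucleolar proteins, 1 of 3 polymerase subunits, 5 of 15 large-subunit factors and 2 of 10 measured small-subunit factors.

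The same withdrawal in cells with the miR-15 sponge lowered 18 of the 42 genes and raised 0, while over all genes tested 14.8% were called lower and 7.91% higher, 22.7% in all. Higher genes were 34.9% of all genes called here, or 51.5% after quantile normalization. At an unadjusted p under 0.05, 28 were lower and 0 higher, against 23.3% and 13.2% of all genes. The median was -0.29 against -0.06 over all genes, and 40 of the 42 values were below 0. Both arrays without IL-7 lay below both arrays with it for 38 genes and above for 0, against 40% and 26% of all genes. The count of 18 genes called lower depended on every sponge array, each of which leaves 1 array in its group when left out. The share of all genes called lower fell in these fits too. With 1 of the 8 arrays left out, the median of the 42 was -0.34 to -0.23. With no filter on dim probes 6 of the 42 were called lower, against 4.74% of all genes.

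The 2 withdrawal comparisons share no arrays, but both take each gene's spread from the same fit of 8 arrays, so their calls are not independent. In both, 15 of the 42 genes (35.7%) were called lower, against 2865 of 21316 genes (13.4%). These 15 were part of the 19 lower in scrambled cells and the 18 lower in sponge cells. Ncl, Nop10, Grwd1 and Ebna1bp2 passed the test in scrambled cells alone, and Polr1a, Tsr1 and Pno1 in sponge cells alone. No difference between these effects passed its own test for any of the 7 genes.

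**Figure D1:**
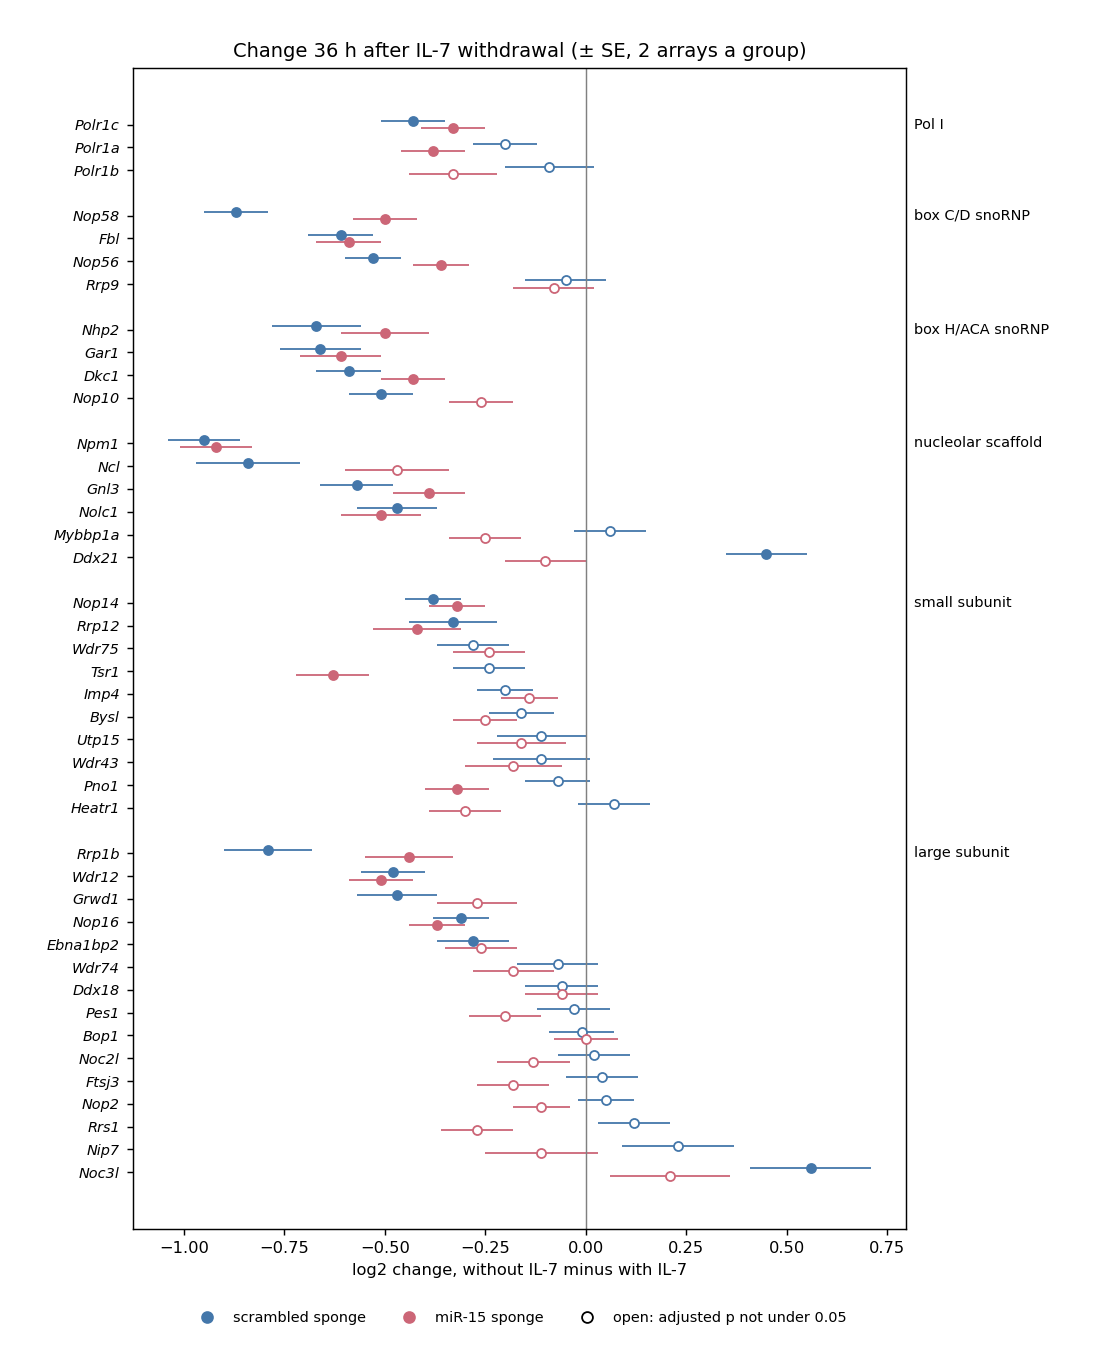
Log2 change 36 h after IL-7 withdrawal for the 42 measured genes by role, in cells with the scrambled sponge (blue) and the miR-15 sponge (red); bars are SE and filled points have a limma adjusted p under 0.05. Among the points furthest to the left are Npm1, Nop58, Ncl and Rrp1b in scrambled cells and Npm1 and Tsr1 in sponge cells, and Ddx21 and Noc3l are filled to the right of 0 in scrambled cells.

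Among the polymerase subunits, Polr1c, which RNA polymerases I and III share, changed in both constructs (probe at chr17:46381120-46381264). It read 3.34 and 3.48 with IL-7 and 2.98 and 2.99 without in scrambled cells, and 3.48 and 3.57 against 3.21 and 3.19 in sponge cells. Without IL-7 it was lower on both arrays of each construct, by 0.43 ± 0.08 (limma adjusted p = 0.00683) and 0.33 ± 0.08 (adjusted p = 0.0347). After quantile normalization Polr1c changed by -0.28 in scrambled cells and by -0.20 in sponge cells, where the call was lost (adjusted p = 0.105), and 7 of the 16 alternatives kept that call.

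Polr1a, the largest subunit of polymerase I, was called in sponge cells alone, where it read 1.43 and 1.41 with IL-7 and 1.03 and 1.05 without, a fall of 0.38 ± 0.08 (limma adjusted p = 0.0199). In scrambled cells it read 1.11 and 0.97, then 0.82 and 0.85, a difference of -0.20 that did not pass (adjusted p = 0.0707). Its second kept probe read otherwise, with changes of 0.84 in scrambled and 0.17 in sponge cells, and the call in sponge cells was lost when the probes were averaged. Polr1b, the second largest subunit, read -0.70 and -0.56 with IL-7 and -0.76 and -0.68 without in scrambled cells, and -0.11 and 0.06 against -0.45 and -0.27 in sponge cells. The groups overlapped in scrambled cells and not in sponge cells, where the difference of -0.33 had a limma adjusted p of 0.0769, or 0.0346 with replicate number as a block.

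Of the 4 box C/D proteins, 3 fell in both constructs. Nop58, a core protein of these particles (probe at chr1:59768230-59768289), read 3.30 and 3.16 with IL-7 and 2.38 and 2.35 without in scrambled cells, a fall of 0.87 ± 0.08 (limma adjusted p = 0.000677). In sponge cells it read 3.58 and 3.65, then 3.16 and 3.05, a fall of 0.50 ± 0.08 (adjusted p = 0.0119). The sponge arrays without IL-7 thus stood close to the scrambled arrays with IL-7.

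Fbl, the methyltransferase fibrillarin, read 2.65 and 2.78 with IL-7 and 2.06 and 2.16 without in scrambled cells, and 3.04 and 3.09 against 2.49 and 2.47 in sponge cells. It fell by about the same amount in both, by 0.61 ± 0.08 (limma adjusted p = 0.00185) and 0.59 ± 0.08 (adjusted p = 0.00664). Nop56, the partner of Nop58, read 4.99 and 4.90, then 4.40 and 4.43 in scrambled cells, a fall of 0.53 ± 0.07 (limma adjusted p = 0.00185), and 5.33 and 5.37, then 5.01 and 4.97 in sponge cells, a fall of 0.36 ± 0.07 (adjusted p = 0.0173). After quantile normalization Nop56 changed by -0.26 in scrambled cells and by -0.10 in sponge cells, where it was not called. Rrp9, which binds the U3 small nucleolar RNA, differed by -0.05 and -0.08 and passed in neither construct.

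The box H/ACA proteins fell together in scrambled cells, by 0.51 to 0.67. Nhp2, a core RNA-binding protein, read 4.93 and 4.76 with IL-7 and 4.08 and 4.27 without in scrambled cells, a fall of 0.67 ± 0.11 (limma adjusted p = 0.00378). Its sponge arrays read 4.93 and 5.02, then 4.54 and 4.41, a fall of 0.50 ± 0.11 (adjusted p = 0.0241). After quantile normalization Nhp2 changed by -0.42 in scrambled cells and by -0.27 in sponge cells, where it was not called.

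Gar1, another core protein, read 4.36 and 4.25, then 3.65 and 3.65 in scrambled cells, and 4.68 and 4.88, then 4.23 and 4.10 in sponge cells. It fell by 0.66 ± 0.10 (limma adjusted p = 0.00316) and 0.61 ± 0.10 (adjusted p = 0.0107), with no overlap in either construct; the sponge value was -0.40 after quantile normalization. Dkc1, the pseudouridine synthase dyskerin, fell by 0.59 ± 0.08 and 0.43 ± 0.08. Nop10, the smallest core protein, read 4.03 and 4.10, then 3.50 and 3.60 in scrambled cells and fell by 0.51 ± 0.08 (limma adjusted p = 0.00431). Its sponge arrays, 4.34 and 4.46 with IL-7 and 4.18 and 4.09 without, differed by -0.26 (adjusted p = 0.076). The scrambled value of Nop10 was -0.33 after quantile normalization.

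Npm1 fell in both constructs. It encodes nucleophosmin, an abundant nucleolar protein that binds ribosomal proteins and histones (chosen probe at chr11:33052849-33054041). Its signal was 6.54 and 6.53 with IL-7 and 5.59 and 5.57 without in scrambled cells, and 6.62 and 6.61 against 5.80 and 5.59 in sponge cells. The falls were 0.95 ± 0.09 (limma adjusted p = 0.000618) and 0.92 ± 0.09 (adjusted p = 0.00355), and its 5 kept probes ranged from -1.07 to -0.56 in scrambled cells and from -0.99 to -0.80 in sponge cells. These were the largest falls of the set on this scale, but after quantile normalization Npm1 changed by -0.48 and -0.57, less than Rrp1b in scrambled cells (-0.86) and Tsr1 in sponge cells (-0.63).

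Ncl, or nucleolin, an RNA-binding protein of the nucleolus (probe at chr1:88247953-88248012), read 5.64 and 5.57 with IL-7 and 4.80 and 4.74 without in scrambled cells, a fall of 0.84 ± 0.13 (limma adjusted p = 0.00347), or 0.47 after quantile normalization. In sponge cells it read 5.91 and 6.29, then 5.62 and 5.65. That difference of -0.47 ± 0.13 did not pass (adjusted p = 0.0525), and the pair with IL-7 lay 0.38 apart.

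Gnl3, the GTPase nucleostemin, read 0.59 and 0.62, then -0.02 and 0.08 in scrambled cells, and 0.90 and 1.06, then 0.63 and 0.55 in sponge cells, falls of 0.57 ± 0.09 (limma adjusted p = 0.00334) and 0.39 ± 0.09 (adjusted p = 0.0289). Nolc1, a chaperone of snoRNPs, read 3.15 and 3.17, then 2.61 and 2.77 in scrambled cells, and 3.59 and 3.78, then 3.21 and 3.14 in sponge cells. It fell by 0.47 ± 0.10 (limma adjusted p = 0.00943) and 0.51 ± 0.10 (adjusted p = 0.0169).

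Ddx21, an RNA helicase that links polymerase I transcription with RNA processing, moved the other way in scrambled cells. The chosen probe (chr10:62043317-62043376) read 0.86 and 1.08 with IL-7 and 1.39 and 1.46 without, a rise of 0.45 ± 0.10 (limma adjusted p = 0.0121), and 1.06 and 1.13, then 1.05 and 0.94 in sponge cells, a difference of -0.10. The other kept probe (chr10:62044862-62044921) changed by -0.18 and -0.26, and the mean of the probes gave 0.14 in scrambled cells with no call (adjusted p = 0.153). The rise was also not called without replicate 2 of the scrambled cells lacking IL-7 (adjusted p = 0.071). Mybbp1a, a nucleolar partner of MYB, differed by 0.06 and -0.25 and passed in neither construct.

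Few small-subunit factors passed the test in scrambled cells, where the median of the 10 measured was -0.18 and Nop14 and Rrp12 were the 2 called. Nop14, a component of the small-subunit processome, read 0.25 and 0.20 with IL-7 and -0.14 and -0.18 without, a fall of 0.38 ± 0.07 (limma adjusted p = 0.00648). In sponge cells it read 0.45 and 0.53, then 0.13 and 0.19, a fall of 0.32 ± 0.07 (adjusted p = 0.0254).

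Rrp12, which acts in export of pre-ribosomes, read -2.37 and -2.51, then -2.86 and -2.67 in scrambled cells, and -1.97 and -1.92, then -2.45 and -2.28 in sponge cells. It fell by 0.33 ± 0.11 (limma adjusted p = 0.0479) and 0.42 ± 0.11 (adjusted p = 0.0395), calls that the replicate block ended (adjusted p = 0.0593 and 0.0541). The call in scrambled cells was lost whichever of the 8 arrays was left out, and that in sponge cells for 6 of the 8. Tsr1, a late factor on small-subunit precursors (probe at chr11:74722413-74722472), fell in sponge cells. It read 0.76 and 0.80 with IL-7 and 0.19 and 0.11 without there, a fall of 0.63 ± 0.09 (limma adjusted p = 0.00785), and 0.14 and 0.33, then -0.05 and 0.05 in scrambled cells, a difference of -0.24 (adjusted p = 0.0786). Pno1, another late factor, was called in sponge cells alone (-0.32, limma adjusted p = 0.0405, or 0.0591 with the replicate block). Heatr1, Utp15, Wdr43 and Wdr75, which belong to the subcomplex that joins the precursor first, passed in neither construct, with changes of -0.28 to 0.07 in scrambled cells and -0.30 to -0.16 in sponge cells. The same held for Imp4 and Bysl. After quantile normalization Heatr1 was called higher in scrambled cells.

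Large-subunit factors were divided, with 5 lower, 1 higher and 9 not called in scrambled cells and a median of -0.03. Rrp1b, a nucleolar protein of early precursors (probe at chr17:32193829-32193888), read -0.60 and -0.65 with IL-7 and -1.49 and -1.35 without in scrambled cells, a fall of 0.79 ± 0.11 (limma adjusted p = 0.0025). In sponge cells it read -0.71 and -0.97, then -1.34 and -1.23, a fall of 0.44 ± 0.11 (adjusted p = 0.0406) that was not called with the replicate block (adjusted p = 0.0651). Wdr12 was lower in both constructs.

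The complex that Wdr12 forms with Pes1 and Bop1 is required for maturation of the large subunit, but its members differed in their values. Wdr12 read 2.63 and 2.54, then 2.08 and 2.12 in scrambled cells, and 2.71 and 2.88, then 2.29 and 2.28 in sponge cells, falls of 0.48 ± 0.08 (limma adjusted p = 0.00528) and 0.51 ± 0.08 (adjusted p = 0.0114). Its second probe changed by -0.07 and -0.25, and the mean of the probes gave -0.27 in scrambled cells. Pes1 differed by -0.03 (95% confidence interval -0.25 to 0.19) in scrambled cells and Bop1 by -0.01 (-0.20 to 0.19), and neither passed in sponge cells.

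Grwd1, a chaperone-like factor for a large-subunit protein, read 0.61 and 0.71, then 0.09 and 0.29 in scrambled cells, a fall of 0.47 ± 0.10 (limma adjusted p = 0.0126) that was 0.30 and not called with the normexp background correction. Its sponge arrays read 1.04 and 1.18, then 0.79 and 0.90, a difference of -0.27 (adjusted p = 0.12). Nop16 fell in both constructs (0.31 and 0.37; with normexp -0.18 and no call in scrambled cells), and Ebna1bp2 fell by 0.28 in scrambled cells, a call lost with the block and after quantile normalization, where the value was -0.08. Noc3l, a factor for precursor transport, read 0.99 and 0.75 with IL-7 and 1.42 and 1.45 without in scrambled cells, a rise of 0.56 ± 0.15 (limma adjusted p = 0.0252). In sponge cells it read 0.99 and 0.58, then 0.96 and 1.03, and the groups overlapped. The rise of Noc3l was not called without replicate 2 of scrambled cells with IL-7 (adjusted p = 0.0895) or without either array lacking IL-7 (0.0912 and 0.104). Ddx18, Nop2, Ftsj3, Noc2l, Rrs1, Nip7 and Wdr74 passed in neither construct, with scrambled values from -0.07 to 0.23. After quantile normalization Rrs1 and Nip7 were called higher in scrambled cells.

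The next comparisons set the miR-15 sponge against the scrambled sponge. They share arrays with the withdrawal comparisons, so the values below stand beside those above and add no independent count. With IL-7 present, 0 of the 42 genes were called; over all genes tested 0.286% were called higher and 0.816% lower, 1.1% in all. At an unadjusted p under 0.05, however, 25 of the 42 were higher and 0 lower in sponge cells, against 9.11% and 10.1% of all genes. The median difference was 0.29, against 0 over all genes, and 40 of 42 values were above 0. Both sponge arrays lay above both scrambled arrays for 36 genes and below for 1, where all genes gave 26.1% and 24.6%. Differences ranged from -0.22 for Rrp1b to 0.60 for Polr1b (limma adjusted p = 0.0713), and Pno1 had the smallest adjusted p, 0.0565, at 0.52. Counts in this comparison depended on the settings, with 6 of the 42 called higher under another background correction (normexp), against 0.694% of all genes. With 1 array left out, the median difference was 0.23 to 0.33.

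After 36 h without IL-7, 13 of the 42 genes were higher in sponge than in scrambled cells and 1 was lower, while 17% of all genes were called higher and 14.7% lower, 31.7% in all. The median difference was 0.19 against -0.04 over all genes. Of the 42 values, 36 were above 0, or 31 after quantile normalization. Both sponge arrays lay above both scrambled arrays for 30 genes and below for 4 (32.9% and 39.5% of all genes). Higher calls were lost on leaving out any array of the scrambled or sponge cells lacking IL-7. The share of all genes called higher fell in these fits too. With 1 array left out, the median difference was 0.17 to 0.22.

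The 13 higher genes were 3 box C/D proteins, 3 box H/ACA proteins, 3 nucleolar proteins, 2 small-subunit factors, 1 polymerase subunit and 1 large-subunit factor. Ncl differed most, by 0.87 ± 0.13 (limma adjusted p = 0.00516), followed by Nop58 at 0.74 ± 0.08 (adjusted p = 0.00216) and Grwd1 at 0.65 ± 0.10 (adjusted p = 0.0061). Nop10 (0.58), Nop56 (0.57), Gnl3 (0.56), Gar1 (0.52), Nolc1 (0.48), Dkc1 (0.48), Rrp12 (0.40), Fbl (0.37), Polr1b (0.36) and Nop14 (0.32) made up the rest. Polr1b stood close to the threshold (limma adjusted p = 0.0497), and was not called whichever of the 8 arrays was left out (adjusted p = 0.0509 to 0.204). The difference of Rrp12 was not called when any array of the cells lacking IL-7, or of the sponge cells with it, was left out (adjusted p = 0.0614 to 0.169).

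Npm1 differed by 0.08 between constructs with IL-7 (95% confidence interval -0.14 to 0.30) and by 0.11 without (-0.11 to 0.33), and its arrays without IL-7 overlapped between constructs. Ddx21 was the 1 gene called lower in sponge cells without IL-7, by 0.43 ± 0.10 (limma adjusted p = 0.022). The mean of its probes gave -0.17 and no call, and the call was also lost when any array of the cells lacking IL-7 was left out (adjusted p = 0.0591 to 0.118). Noc3l differed by -0.44 and did not pass (adjusted p = 0.0755).

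Marker sums of other cell types also differed between the constructs. The log2 of the summed T cell marker signal was 4.16 and 4.10 in scrambled and 3.78 and 3.81 in sponge cells with IL-7, and 4.31 and 4.29 against 3.80 and 3.83 without. The myeloid sums overlapped with IL-7 (4.44 and 4.02 against 4.19 and 3.82) and did not without it (4.78 and 4.77 against 4.17 and 4.21). The NK sums overlapped with IL-7 (-0.30 and -0.38 against -0.33 and -0.23) and did not without it (0.01 and 0.05 against -0.56 and -0.50). The pre-B sums were 10.61 to 10.72 in scrambled and 10.43 to 10.60 in sponge cells. Single pre-B markers differed more. With IL-7, 2 of 12 were called lower in sponge cells (lowest -2.4), against 0.816% of all genes. Without it 6 of 12 were called lower (lowest -2.55), against 14.7% of all genes, and 0 were higher in either comparison. Of the 4 kept T cell markers, 2 had values below 0 with IL-7 and 3 without. The part of these differences in the results was not tested.

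**Figure D2:**
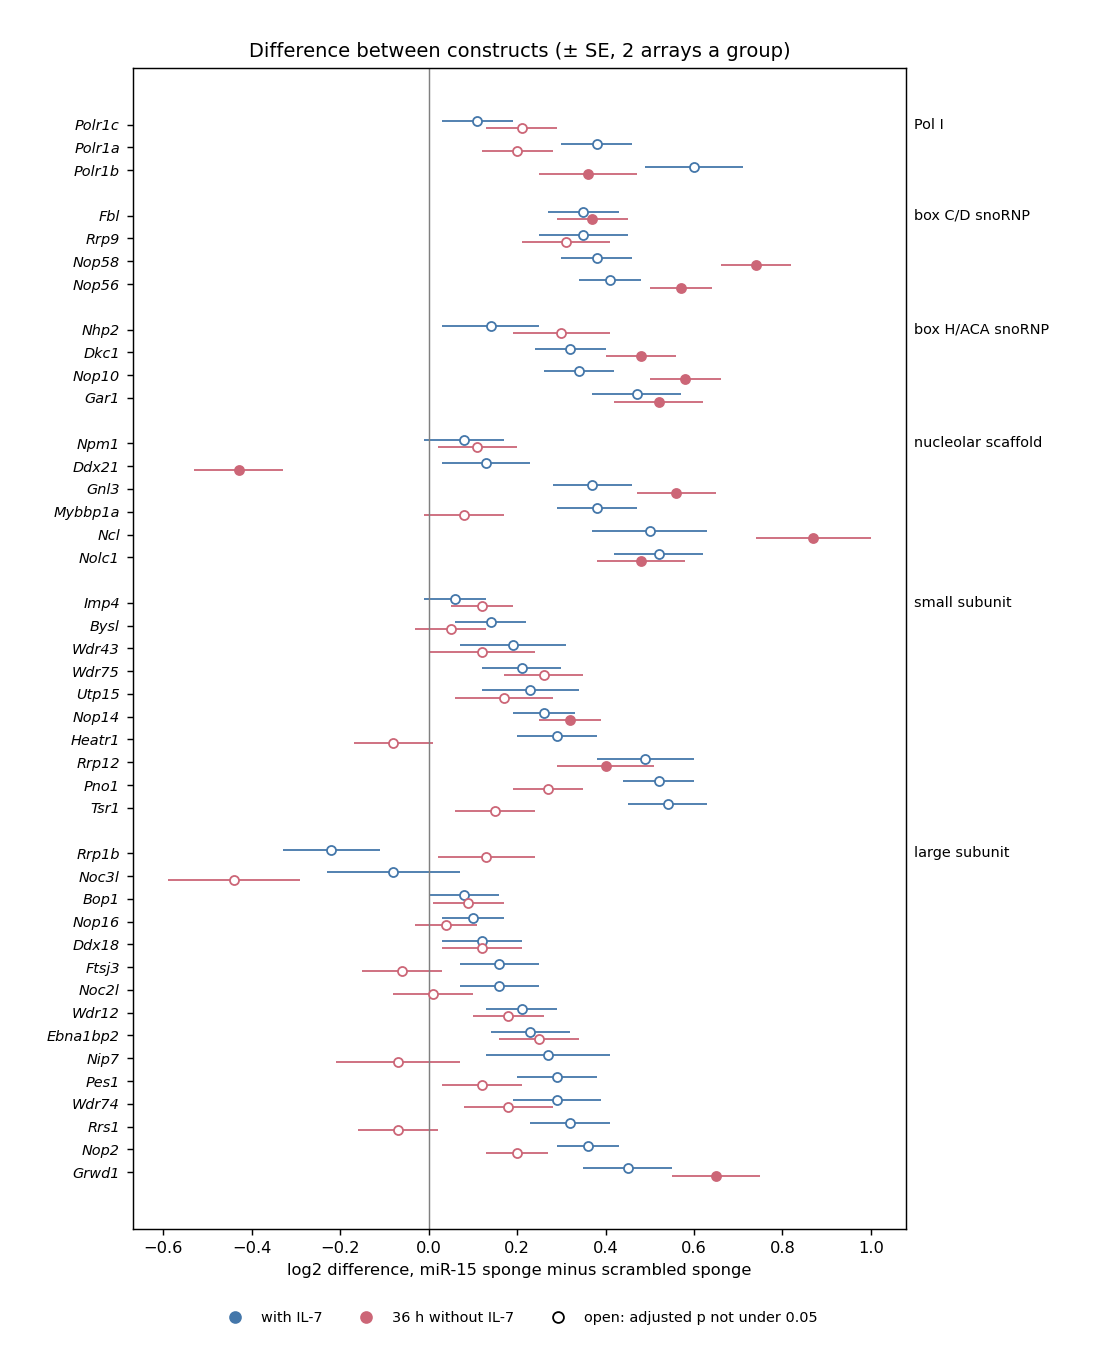
Log2 difference between cells with the miR-15 sponge and the scrambled sponge for the 42 measured genes by role, with IL-7 (blue) and 36 h without (red); bars are SE and filled points have a limma adjusted p under 0.05. With IL-7, 40 of 42 points lie right of 0 and 0 are filled; without IL-7, 13 are filled to the right and Ddx21 to the left.

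**Figure D3:**
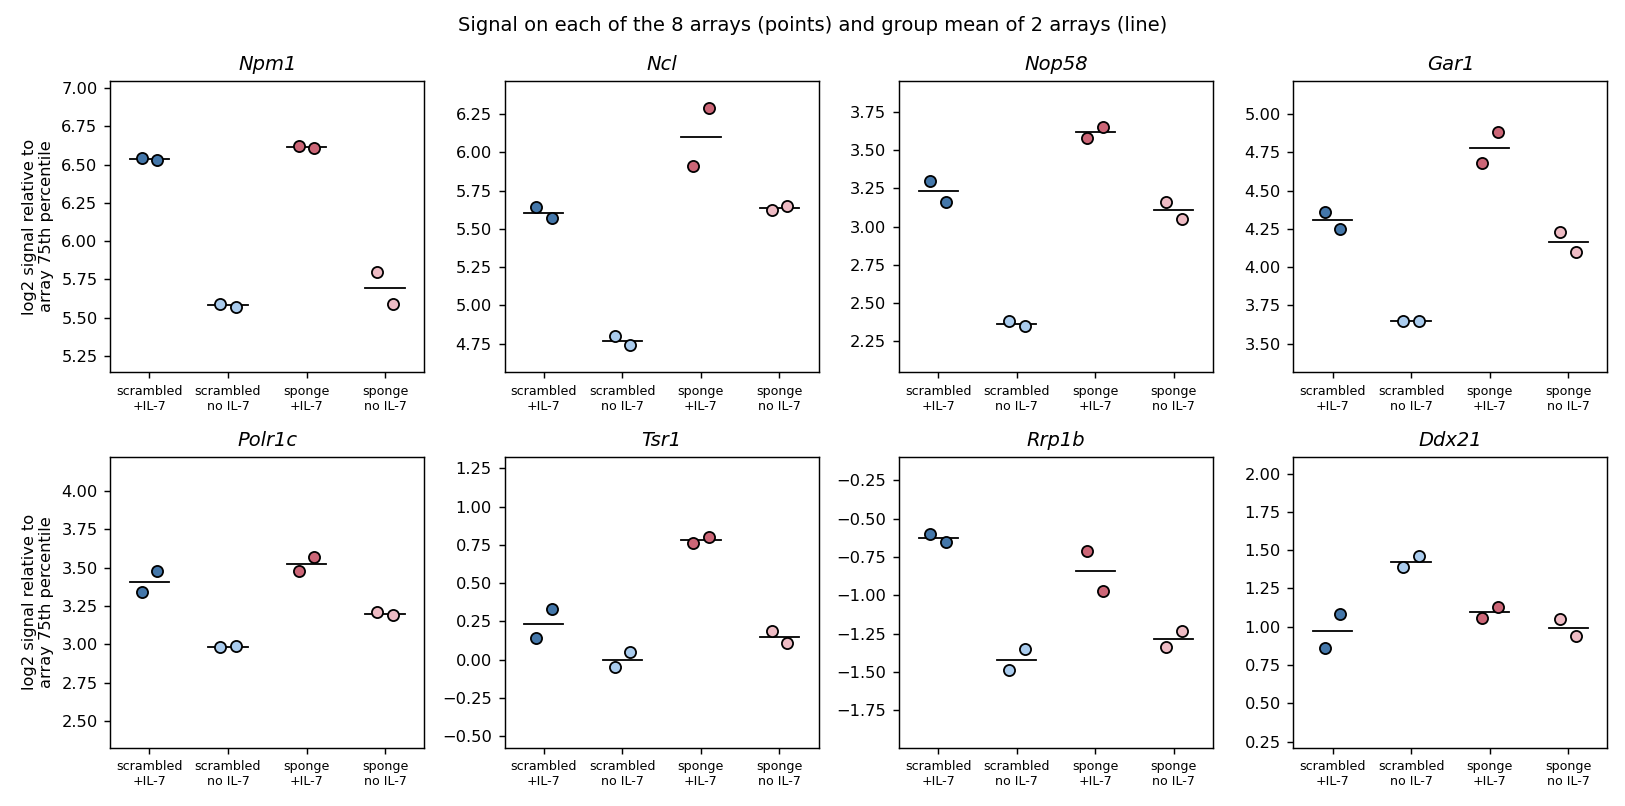
Log2 signal relative to the array's 75th percentile for 8 of the genes, with 1 point per array and a line at the mean of the 2 arrays of each group; every panel spans the same number of log2 units. Sponge arrays without IL-7 lie close to the scrambled arrays with IL-7 for Nop58 and close to the scrambled arrays without IL-7 for Npm1, and Ddx21 is highest in scrambled cells without IL-7.

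Whether withdrawal acted differently in the constructs was tested as the difference between the withdrawal effects. None of the 42 genes passed, where 5.71% of all genes did (4.8% higher and 0.915% lower). Higher genes were 84% of those called, or 73.2% after quantile normalization. At an unadjusted p under 0.05, 1 gene was higher and 4 were lower (2.38% and 9.52%), against 13.6% and 9.15% of all genes. The median difference was -0.04, against -0.02 over all genes, and single values ran from -0.56 for Ddx21 (limma adjusted p = 0.0822) to 0.37 for Ncl and Nop58 (adjusted p = 0.3 and 0.147). Without replicate 2 of the scrambled cells with IL-7, Ddx21 was called lower (-0.66, adjusted p = 0.0463).

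The wider pathway was read from lists of further factors. Of 116 other measured genes of ribosome biogenesis, 39 fell and 15 rose on withdrawal in scrambled cells (29 and 32 after quantile normalization). Over all genes, 28.1% were called lower and 19.9% higher there (23.3% and 24.6% after quantile normalization). In sponge cells 25 fell and 1 rose (14 and 4), against 14.8% and 7.91% of all genes (9.2% and 9.79%). The count of falls there depended on the settings, with 20 under the replicate block (13.4% of all genes). Between constructs, 0 were called with IL-7, and without it 24 were higher and 9 lower in sponge cells (24 and 21 after quantile normalization). Of all genes, 1.1% were called with IL-7. Without it 17% were higher and 14.7% lower (16.8% and 18.2% after quantile normalization). The medians of the 116 genes were -0.16, -0.15, 0.12 and 0.07 in these 4 comparisons, against -0.04, -0.06, 0 and -0.04 over all genes.

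Further polymerase I factors included Taf1d, a subunit of the promoter selectivity factor, which fell by 1.06 ± 0.08 in scrambled and 0.92 ± 0.08 in sponge cells (limma adjusted p = 0.000424 and 0.00333). The polymerase subunit Cd3eap fell by 0.61 and 0.66. Taf1c, of the same selectivity factor as Taf1d, rose by 0.51 and 0.38, and Twistnb rose by 0.51 in scrambled cells. Among snoRNP assembly factors, Shq1, a chaperone of dyskerin, fell by 1.1 and 0.61, and Znhit3 fell by 1.03 and 0.39. Nufip1, a platform of box C/D assembly, rose by 0.52 in scrambled cells.

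Of 22 genes of the RNA exosome and RNase MRP, which trim and cut the precursor, 15 fell and 2 rose in scrambled cells. In sponge cells 10 fell (5 after quantile normalization, 7 with the replicate block). Over all genes, 28.1% were called lower and 19.9% higher in scrambled cells. In sponge cells 14.8% of all genes were called lower (9.2% and 13.4% in those 2 alternatives). Exosc8, of the exosome ring, fell by 1.38 ± 0.11 in scrambled cells (limma adjusted p = 0.000421), and Rpp30, shared by RNase P and RNase MRP, fell by 1.1 ± 0.10. Among the other assembly factors, Tbl3 and Emg1 of the small subunit fell by 0.60 and 0.59 in scrambled cells, while Ppan and Mdn1 of the large subunit rose by 0.69 and 0.61.

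Of 79 cytosolic ribosomal protein genes, 73 fell in scrambled cells (median -0.50) and 76 in sponge cells (median -0.60). Over all genes the shares called lower were 28.1% and 14.8%. After quantile normalization only 27 and 24 of the 79 fell, against 23.3% and 9.2% of all genes. Rps2 fell by 1.34 and Rpl36a by 1.20 in scrambled cells, and the muscle paralogue Rpl3l rose by 1.19. These genes have many near-identical copies, so which copy a probe reads is uncertain. Between constructs, 0 were called with IL-7, and 8 were lower and 1 higher in sponge cells without it (12 and 0 after quantile normalization). Of all genes, 1.1% were called with IL-7. Without it 14.7% were lower and 17% higher (18.2% and 16.8% after quantile normalization). DNA replication genes, the list with the largest changes, had medians of -2.33 in scrambled and -0.75 in sponge cells. All 28 were called lower in the former and 21 in the latter, against 28.1% and 14.8% of all genes. In sponge cells the count depended on the settings, with 12 after quantile normalization (9.2% of all genes) and 22 with the replicate block (13.4%).

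Myc, the known activator of the pathway, read -0.37 and -0.29 with IL-7 and -2.96 and -3.07 without in scrambled cells, and -0.46 and -0.35 against -2.00 and -1.93 in sponge cells. It fell by 2.69 ± 0.08 (limma adjusted p = 0.000217) and 1.57 ± 0.08 (adjusted p = 0.0017). With IL-7 the constructs differed by -0.07 ± 0.08 (adjusted p = 0.637), and without it Myc was higher in sponge cells by 1.05 ± 0.08 (adjusted p = 0.00122). Its arrays overlapped between constructs with IL-7 and not without. The withdrawal effects differed by 1.12 ± 0.12 (limma adjusted p = 0.028), a call lost in most fits without 1 array. Few or none of all genes passed this test in most such fits.

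**Figure D4:**
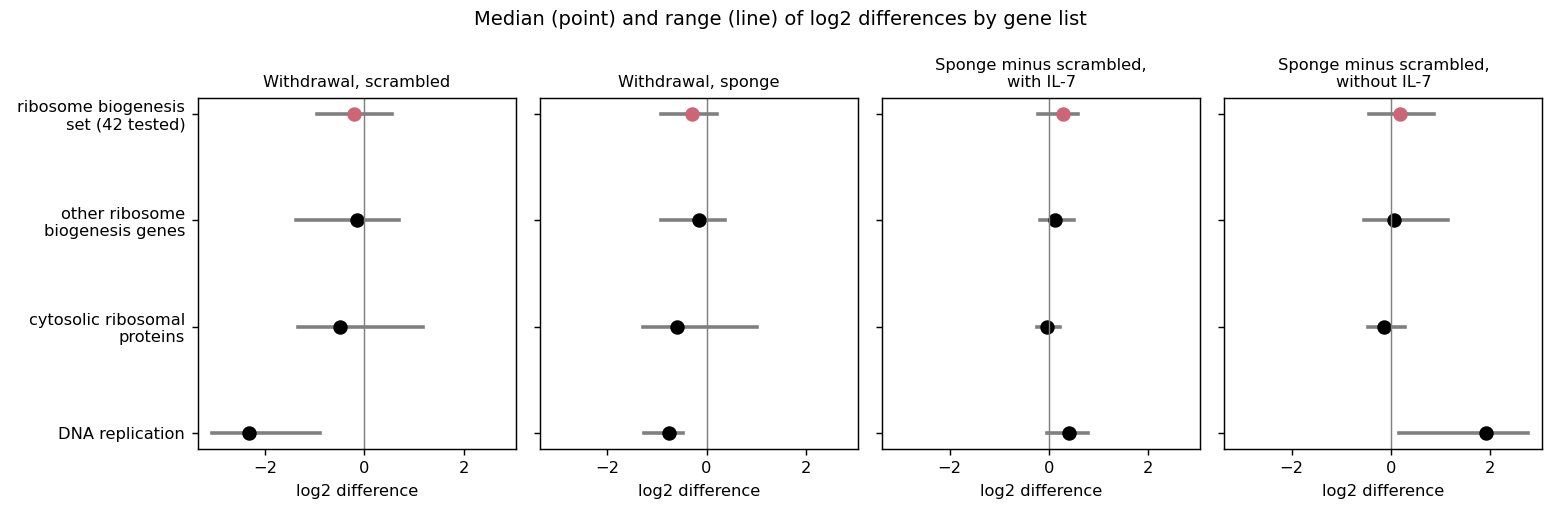
Median (point) and range (line) of the log2 differences in 4 comparisons for the 42 measured genes of the set (red) and for 116 other ribosome biogenesis genes, 79 ribosomal protein genes and 28 DNA replication genes (black). The median of the set is at -0.22 and -0.29 on withdrawal and at 0.29 and 0.19 between constructs, and the median of the DNA replication genes is furthest from 0 in each of the 4 panels.

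The promoters were searched for CACGTG, the E-box that MYC is known to bind, which reads the same on both strands. RefSeq windows (GRCm38.p6, 250 bases before to 50 after the start) were available for 38 of the 43 genes; Bop1, Fbl, Npm1, Rrp12 and Rrs1 had no entry in the table used. The motif was in 9 of the 38 genes (23.7%, exact binomial 95% interval 11.4 to 40.2), against 8.09% of 27025 genes of the table and 11.1% of 11040 tested genes with a window. The genes and the motif were chosen with earlier results of these data known. The interval takes the genes as random draws, so the share is a description and no test. In the 150 bases before the start alone the shares were close, 7.89% of the set and 6.99% of tested genes. It occurred in 5 of 10 small-subunit factors, 3 of 13 large-subunit factors, 1 of 5 nucleolar proteins and in no polymerase subunit or snoRNP protein. Of the 12 genes with a window that were lower on withdrawal in both constructs 0 had it, and of the 18 lower in neither 5 had it. Genes called lower in 1 construct alone are in neither group. Among them Grwd1, Tsr1 and Pno1 had the motif, and Ncl, Nop10, Ebna1bp2 and Polr1a did not. The 9 genes were Grwd1, Imp4, Mybbp1a, Nop2, Pes1, Pno1, Tsr1, Utp18 and Wdr43. The motif lay before the start in Imp4 (-121), Nop2 (-60) and Utp18 (-20). In the other genes it lay after the start, from 3 in Pes1 to 41 in Mybbp1a.

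Printed here are the 250 bases before the start of 2 genes with the motif and no withdrawal call, and of 2 without it that fell in scrambled cells; capitals mark CACGTG. Imp4 is at chr1:34439579-34439828 on the plus strand, Nop2 at chr6:125131633-125131882 on the plus strand, Nop58 at chr1:59684756-59685005 on the plus strand and Ncl at chr1:86359456-86359705 on the minus strand, all on GRCm38.p6.
Imp4: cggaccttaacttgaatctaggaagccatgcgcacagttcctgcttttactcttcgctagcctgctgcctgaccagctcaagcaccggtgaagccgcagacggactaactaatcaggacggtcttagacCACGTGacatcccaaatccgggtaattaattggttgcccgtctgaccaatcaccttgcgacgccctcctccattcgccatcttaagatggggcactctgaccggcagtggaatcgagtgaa
Nop2: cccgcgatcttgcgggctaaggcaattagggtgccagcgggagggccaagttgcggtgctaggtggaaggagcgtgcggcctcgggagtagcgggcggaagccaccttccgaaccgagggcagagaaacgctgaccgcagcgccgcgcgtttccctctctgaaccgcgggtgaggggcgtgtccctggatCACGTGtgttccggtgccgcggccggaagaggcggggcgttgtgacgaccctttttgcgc
Nop58: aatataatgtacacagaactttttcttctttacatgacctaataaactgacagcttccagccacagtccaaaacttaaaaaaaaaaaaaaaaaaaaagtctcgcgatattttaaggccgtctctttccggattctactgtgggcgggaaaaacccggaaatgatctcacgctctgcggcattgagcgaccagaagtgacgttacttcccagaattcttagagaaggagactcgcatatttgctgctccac
Ncl: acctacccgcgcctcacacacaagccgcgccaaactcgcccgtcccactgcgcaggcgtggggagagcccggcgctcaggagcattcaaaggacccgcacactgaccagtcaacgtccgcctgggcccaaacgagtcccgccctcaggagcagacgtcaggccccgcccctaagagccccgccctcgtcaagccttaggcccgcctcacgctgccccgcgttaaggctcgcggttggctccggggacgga

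A match in these windows is a description of the letters and not a bound site. Imp4 differed by -0.20 and -0.14 on withdrawal in scrambled and sponge cells and Nop2 by 0.05 and -0.11, none of which passed. Nop58 and Ncl were the 2 genes with the largest differences between constructs without IL-7.

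Several of the genes also hold small nucleolar RNAs inside their spans, in the RefSeq annotation of GRCm38.p6 and without regard to strand. This was so for 7 of the 43 (16.3%), namely Dkc1, Gnl3, Ncl, Nop56, Nop58, Tsr1 and Wdr43, against 276 of 13056 tested protein-coding genes (2.11%). Nop56 held 5 annotated small nucleolar RNAs, among them Snord57 and Snord110, and Nop58 held 4, among them Snord11 and Snord70. On withdrawal in scrambled cells 5 of these 7 genes fell, with a median of -0.57, and 14 of the other 35 fell, with a median of -0.16. Of all genes tested, 28.1% were called lower there. Between constructs without IL-7, 5 of the 7 were higher in sponge cells (median 0.56) and 8 of the other 35 (median 0.18). Of all genes tested, 17% were called higher in that comparison. The 7 genes include 3 snoRNP proteins and 2 nucleolar proteins, so role and host status overlap.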

How the data were processed

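RNA of 8 cultures was labelled with Cy3 and hybridised to one-colour Agilent arrays, 2 per group, with groups taken from the labels. The authors' deposited scanner files hold linear intensity values made with Agilent Feature Extraction (10.7.1.1 per the submitters' processing notes, 10.7.3.1 per the file headers). Per the file headers, background was subtracted and signals were not normalized between arrays. The deposited value table, a linear intensity with the same distribution on every array, was used as an alternative; its method was not given in the sources used here.

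From these, the 75th percentile of each array was subtracted from log2 of its processed signals, without control spots and outlier spots. A probe was kept if both arrays of some group had it well above background (30959), and the brightest kept probe stood for a gene. Group means were fitted with limma 3.58.1 in R 4.3.3 on 8 arrays, with Benjamini-Hochberg adjustment; 5 genes lacked a value on some array. The script was tested on simulated data. Of the probes, 27176 were named by accession and 24300 kept the name in the file. Precision is limited by 2 arrays per group. The p values measure only the spread between repetitions, pooled for each gene over the 4 groups (4 residual degrees of freedom) and moderated over all genes.

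Repetitions used independent clones per the series' design text; same-numbered arrays correlated at 0.0177 to 0.131 in their deviations from group means, and a fit with replicate number as a block was an alternative. Others were quantile, median and normexp processing, other probe filters, the mean of a gene's probes and leaving out each array. Members and lists were chosen with earlier results of these data known. Full array values are given for, per role, the 2 called genes with the largest withdrawal change in each construct, and for genes called higher; other pathway genes are the 2 largest calls per list and direction.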

Additional observations from a re-analysis of the deposited data

Results flagged for a closer look

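For 5 genes outside the set, the effect of withdrawal differed between the constructs by the test of that difference. With no filter on dim probes 0 of all genes passed that test, and in most fits without 1 array few or none did. The numbers of alternatives that called a gene, given below, include these fits. Myc had a difference of 1.12 ± 0.12 (limma adjusted p = 0.028, or 0.0465 with the replicate block). It was 0.50 with the normexp background correction (adjusted p = 0.0404).

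The snoRNP assembly factor Znhit3 had a difference of 0.64 ± 0.13 (limma adjusted p = 0.047, or 0.0722 with the block) and was called in 5 of 16 alternatives. Exosc8 of the exosome differed by 0.88 ± 0.16 (adjusted p = 0.0386, or 0.0657 with the block) and Rpp30 of RNase MRP by 0.81 ± 0.14 (adjusted p = 0.0354, or 0.0605 with the block), each called in 7 of 16. The large-subunit factor Ppan differed by -0.57 ± 0.10 (adjusted p = 0.0403, or 0.0657 with the block) and was called in 6 of 16.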

How the results depend on the processing

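Across 16 alternatives no call of the 42 genes reversed its sign. Of the calls, 14 of 19 falls in scrambled cells, 2 of 18 falls in sponge cells (Npm1 and Fbl) and 7 of 13 higher values in sponge cells without IL-7 held in all 16, and 0 of the 2 rises did. Quantile normalization and the deposited value table each gave 5 rises in scrambled cells, where 24.6% of all genes were called higher. The rises added were Rrs1, Nip7 and Heatr1. Both settings gave a median change of -0.18 in sponge cells. Both gave 1 gene higher in sponge cells with IL-7 (0.305% and 0.3% of all genes) and 2 lower without (18.2% and 18.1%). Normexp gave 6 higher with IL-7 (0.694% of all genes) and 2 lower without (15.5%). With no filter there were 1 rise, 6 falls in sponge cells and 0 lower without IL-7, against 9.4%, 4.74% and 5.83% of all genes. The filter on all arrays gave 4 higher with IL-7 (0.693% of all genes). The mean of the kept probes gave 0 lower without IL-7 (15% of all genes). The share of promoters with the motif was 50% with CACGTG or CACGCG (27% of tested genes) and 7.89% in the 150 bases before the start (6.99%). The cause of these shifts was not tested.

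Leaving out 1 array gave a median change of -0.27 to -0.19 in scrambled cells and of -0.34 to -0.23 in sponge cells. The median difference between constructs was 0.23 to 0.33 with IL-7 and 0.17 to 0.22 without. For the difference between withdrawal effects the median was -0.08 to 0.03. Such fits leave 1 array in a group, and the share of all genes called changed with them too.

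With replicate number as a block, 17 genes fell and 2 rose in scrambled cells, against 27.7% and 20.3% of all genes. In sponge cells 16 fell, against 13.4% of all genes. Between constructs 0 differed with IL-7, against 0.69% of all genes. Without IL-7, 14 were higher and 1 lower in sponge cells, against 16.6% and 14.5%. The block ended the falls of Rrp12 and Ebna1bp2 in scrambled cells and of Rrp1b, Rrp12 and Pno1 in sponge cells.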
